A study of Mus musculus with 6 samples.

Results

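The genes described here are 10 listed as restraining Wnt signalling, measured in cultured mouse chondrocytes after knockdown of Irf1. They were taken by symbol from the deposited tables. The secreted genes listed as antagonists are Sfrp1, Sfrp2, Frzb, Wif1, Dkk2, Dkk3 and Notum, of which the part of Dkk3 depends on the cell. The intracellular feedback genes are Axin2, Nkd1 and Nkd2. All 10 were found among 55377 listed genes, and 9 passed the filter on low counts that left 14683 genes for testing. Dkk2 did not pass it.

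Wnt proteins are lipid-modified signals that bind Frizzled receptors and LRP5 or LRP6 co-receptors and stabilise beta-catenin, which then activates transcription with TCF/LEF factors. Cells limit this signal outside the membrane with proteins that trap the ligand, strip its lipid or occupy the co-receptor, and inside it with proteins whose genes are themselves switched on by beta-catenin. In cartilage the balance matters because high Wnt activity pushes chondrocytes away from a stable state, and Frzb was first found in cartilage.

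Chondrocytes in primary culture from mouse articular cartilage received control siRNA or Irf1 siRNA, and RNA was taken 36 h later. Each group held 3 libraries, and the labels describe the control group as control and the other as Irf1-knockdown, with no allele or other agent in either. The labels do not say whether replicates were separate cultures or animals, so each p-value here reflects the spread between these libraries alone, which may be technical. The labels give no age, sex or strain.

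Total counts ranged from 22349142 to 29282494 per library, lower in every knockdown library than in every control library. Irf1, the targeted gene, gave 312, 355 and 362 counts after control siRNA against 125, 140 and 141 after its own siRNA, so each library matched its label. The chondrocyte label held: the summed level of 11 chondrocyte markers was 92074 to 120709 CPM (counts scaled to each library's normalised size) in the control libraries and 91650 to 120416 in the knockdown libraries. Most of this sum is Col2a1, at a mean of 72194 and 71709 CPM, so it says little of the other markers. Of the 11, 1 fell, Hapln1, from 1877 to 915 CPM. Of 8 fibroblast markers the sum went from 6311 to 7786 CPM down to 4569 to 5607 CPM, but most of this sum is Col1a1 and Col1a2, which fell. The other 4 tested markers did not pass the threshold (Pdgfra was at 71.95 and 72.6 CPM), and Dpt and Pi16, below 0.1 CPM, were not tested. Of 4 markers of the superficial zone or synovial lining, Prg4 rose from 42.2 ± 5.21 to 58.1 ± 4.62 CPM and Abi3bp fell from 22.7 ± 1.24 to 15.4 ± 1.76 CPM (SD, n = 3), with sums of 71.4 to 92.9 CPM and 77.9 to 99.5 CPM. Of 5 mural or smooth muscle markers the sum went from 1522 to 1686 CPM down to 1122 to 1247 CPM. Among them Acta2 was lower, from 684 ± 120 to 276 ± 35.4 CPM (SD, n = 3). Of 6 osteoblast markers 0 passed the threshold, with sums of 129.6 to 152.0 CPM and 89.9 to 122.3 CPM. Of 6 macrophage markers Cd14 and Cd68 rose, with sums of 12.8 to 16.5 CPM and 18.1 to 18.6 CPM, and Adgre1 had no count in any library. The part of these differences in the results that follow was not tested. In bulk RNA, fewer cells of a type and less RNA per cell cannot be told apart.

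With Irf1 siRNA, 3 of the 9 tested genes rose (Nkd1, Frzb and Axin2) and 2 fell (Sfrp1 and Dkk3). Wif1, Sfrp2, Notum and Nkd2 did not pass the threshold, an adjusted p below 0.05 in edgeR's quasi-likelihood test with Benjamini-Hochberg adjustment over all tested genes. Over all genes the same test called 22.4%, of which 10.4% of tested genes were higher and 12.0% lower. The groups did not overlap for those same 5 genes, against 38.1% of all tested genes. Among the secreted genes 1 rose and 2 fell, and among the intracellular feedback genes 2 rose and 0 fell. The 10 genes were chosen with results of these data known, so their share of 55.6% is a description. The plot of levels by library shows each gene on its own scale.

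**Figure D1:**
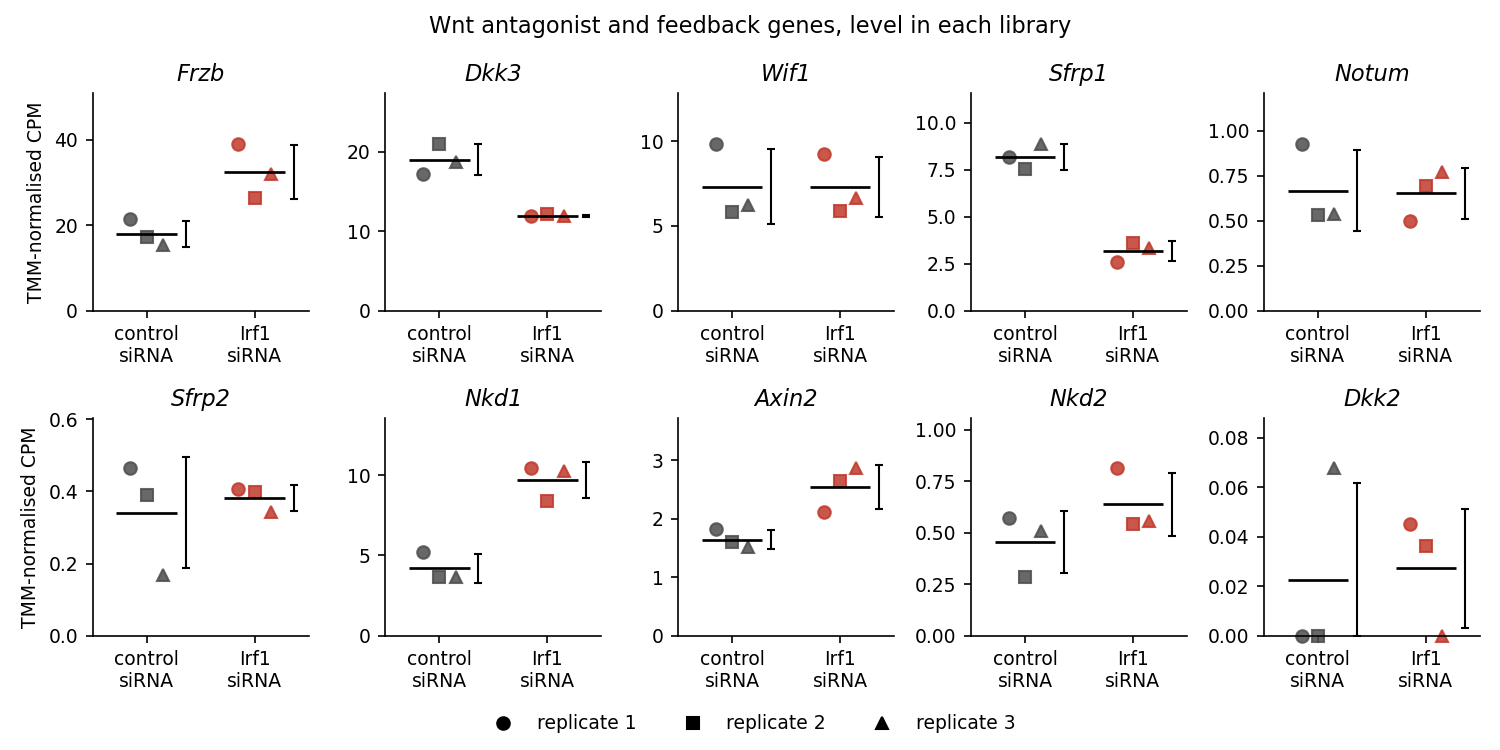
Normalised CPM (vertical axis, from 0, own scale for each gene) in each of 3 control siRNA (grey) and 3 Irf1 siRNA (red) libraries for the 10 genes, where marker shape gives the replicate number, the line the mean and the bar the SD. Sfrp1 and Dkk3 lie lower and Nkd1, Frzb and Axin2 higher in every Irf1 siRNA library than in any control library.

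Sfrp1 encodes a secreted protein with a Frizzled-like cysteine-rich domain that binds Wnt ligands. Control libraries held 8.17, 7.52 and 8.88 CPM of it, and Irf1 siRNA libraries 2.62, 3.60 and 3.33 CPM. Every knockdown library was thus far below the lowest control library. The mean went from 8.19 ± 0.681 to 3.18 ± 0.506 CPM (SD, n = 3), a 2.56-fold fall (log2 fold change −1.35, SE 0.14, adjusted p = 4.7e-06 in edgeR), from 704 counts in all to 235. By p-value it ranked 167 among all tested genes, the strongest of the 10.

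The 3′ untranslated region (3′ UTR) of Sfrp1 holds short words that went with falls across all genes in earlier work on these same libraries, so their presence is a description and not independent evidence. The word ACTGATC overlaps the word CTGATCA by 6 bases, and the word GCTATCT overlaps the word CTATCTA by 6; all 4 were searched on the transcript strand. In GENCODE M21 transcripts (GRCm38, not the authors' build) the 3′ UTR of Sfrp1 is 3144 bases long and holds words at bases 437, 2310 and 2543, counted from 1 after the stop codon. The 3 sites are shown with the word in capitals, since they set Sfrp1 apart from Dkk3, the other gene that fell.
Sfrp1, chr8:23446917-23446939 (+): agaagagtCTGATCAttgccaag
Sfrp1, chr8:23448790-23448812 (+): aaagggagGCTATCTaggggccc
Sfrp1, chr8:23449023-23449045 (+): tatcaataGCTATCTtagaaaat
At base 2310 the next letter makes the word CTATCTA as well. Dkk3, with a 3′ UTR of 2194 bases, holds 0 of the 4 words, as do Frzb, Axin2, Wif1, Sfrp2 and Dkk2. Notum holds ACTGATC and CTGATCA at 1 place, and Nkd1 and Nkd2 each hold CTATCTA. At least 1 word is present in 22.4% of 12825 tested genes with an annotated 3′ UTR, in 43.7% of the lower genes, 14.4% of the higher genes and 19.8% of the rest. Nkd1, which rose, and Notum, which did not move past the threshold, show that a word was also found in genes that did not fall. No correction for 3′ UTR length was made.

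Genes with a pattern like that of Sfrp1 were looked for among 10457 others that averaged 5 CPM or more. The 3 whose log2 levels followed it most closely over the 6 libraries were Clip1 (Pearson r = 0.9995), Ammecr1 (r = 0.9990) and Mki67 (r = 0.9989). These 6 points differ mainly by treatment, and 1155 genes had r above 0.9. Clip1 encodes a microtubule plus-end protein and went from 98.9 to 77.5 CPM. Ammecr1 went from 40.2 to 22.7 CPM, and Mki67, the proliferation marker, from 73.0 to 55.6 CPM. Pearson r does not measure size: the log2 fold changes of Clip1, Ammecr1 and Mki67 were −0.35, −0.82 and −0.39, against −1.35 for Sfrp1.

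Frzb, also called secreted Frizzled-related protein 3, moved the other way. It was measured at 21.4, 17.2 and 15.4 CPM with control siRNA and at 39.0, 26.3 and 31.9 CPM with Irf1 siRNA. The lowest knockdown library was above the highest control library, by less than the range within the knockdown group. The mean rose from 17.97 ± 3.07 to 32.4 ± 6.37 CPM (SD, n = 3), 1.80-fold (log2 fold change 0.85, SE 0.16, adjusted p = 0.0069 in edgeR). Sfrp2, the nearest relative of Sfrp1 in this set, had 13, 11 and 5 counts with control siRNA and 9, 11 and 8 with Irf1 siRNA. These ranges overlap, and the log2 fold change of 0.18 had a 95% interval from −0.73 to 1.09 (adjusted p = 0.81 in edgeR), too wide at this depth to show a change of the size of that in Frzb. An antisense gene, Gm26771, overlaps Sfrp2 by 347 exonic bases and had 12 and 11 counts in all in the groups, so with the strand setting of the counting not known the level of Sfrp2 is uncertain. Sfrp1 and Frzb, which encode proteins of 1 family, thus moved in opposite directions in the same libraries.

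**Figure D2:**
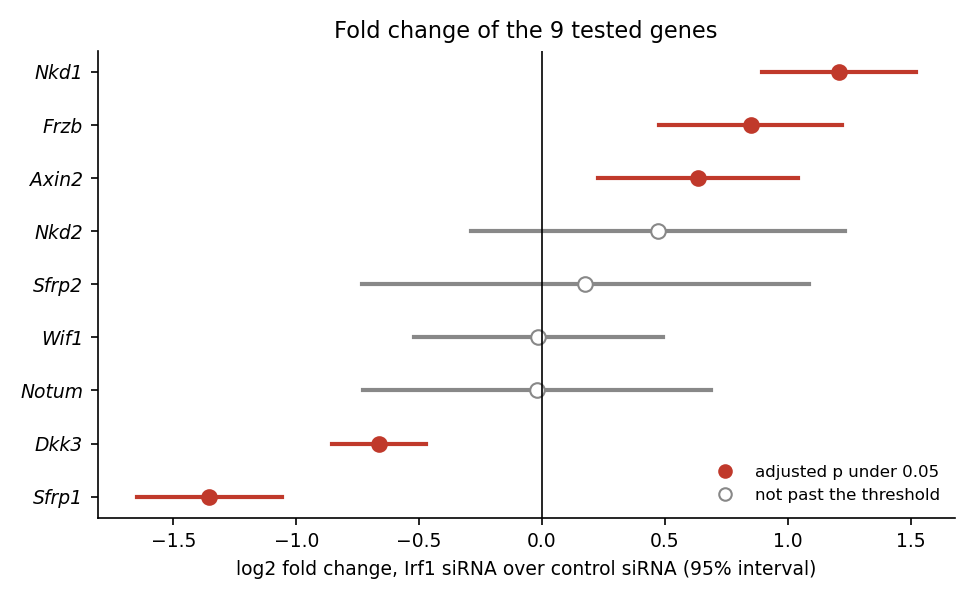
Log2 fold change of Irf1 siRNA over control siRNA (horizontal axis) for the 9 tested genes with its 95% interval from the edgeR fit; filled red points passed the threshold and open grey points did not. Sfrp1 (−1.35) and Dkk3 (−0.66) lie below 0 and Nkd1 (1.21), Frzb (0.85) and Axin2 (0.63) above it, and the widest interval is that of Sfrp2.

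Wif1 encodes Wnt inhibitory factor 1, a secreted protein that binds Wnt ligands through a domain unlike that of Frizzled. Levels were 9.84, 5.85 and 6.21 CPM in control libraries and 9.25, 5.88 and 6.66 CPM in Irf1 siRNA libraries. The groups covered nearly the same range, and in each of them replicate 1 stood above the other two. The log2 fold change was −0.02 (SE 0.22, adjusted p = 0.97 in edgeR), with a 95% interval of 0.697-fold to 1.40-fold.

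The libraries with the most Wif1 were also those with the largest share of Col2a1, the main collagen gene of cartilage. Col2a1 took 7.95%, 7.40% and 6.09% of all counts in control replicates 1, 2 and 3, and 8.15%, 6.21% and 7.27% in the Irf1 siRNA replicates. Frzb was highest in replicate 1 of both groups as well, and within each group its libraries stood in the order of their Col2a1 share. Wif1 did not follow that order in the control group, where replicate 2 had the lowest level, 5.85 CPM. Sfrp1 was lowest in Irf1 siRNA replicate 1, the library with the largest Col2a1 share. Control replicate 1, with the largest control share, held the middle of the control levels of Sfrp1, 8.17 CPM. With the Col2a1 level of each library added to the edgeR model, a choice made after seeing the data, the log2 fold change was 0.86 for Frzb (adjusted p = 3.7e-10), −1.37 for Sfrp1 (adjusted p = 4.2e-09) and 0.00 for Wif1 (adjusted p = 0.99). The Col2a1 share overlapped between the groups, so this term could shift a difference between them only little, and the part of the Col2a1 share in these levels was not tested. The fit with the Col2a1 level called more genes over all, 2298 higher and 2491 lower against 1522 and 1767 in the main fit. The smaller adjusted p-values of Frzb and Sfrp1 in it are thus not read as stronger evidence.

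**Figure D3:**
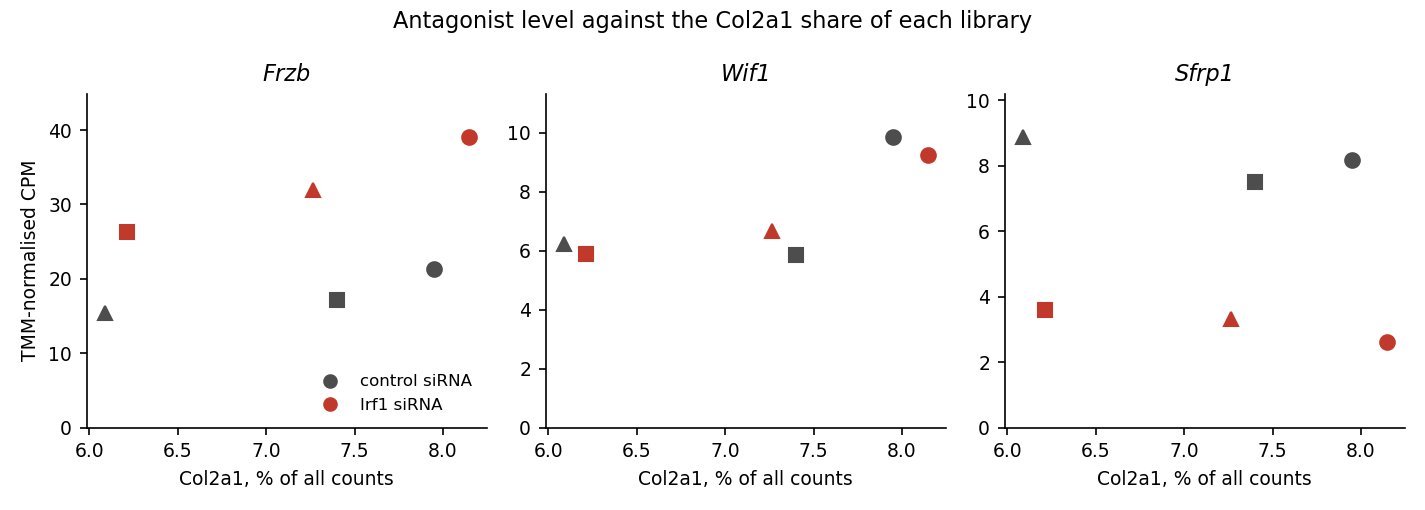
Normalised CPM of Frzb, Wif1 and Sfrp1 (vertical axes, from 0) against the percent of all counts that Col2a1 took in the same library (horizontal axis), for 3 control siRNA (grey) and 3 Irf1 siRNA (red) libraries; marker shape gives the replicate number (circle 1, square 2, triangle 3). Wif1 is near 9 to 10 CPM in the libraries with a Col2a1 share of 7.95% and 8.15% and lower in the other 4, with no separation of the treatments, while Frzb and Sfrp1 separate by treatment at every share.

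Dickkopf proteins are secreted cysteine-rich factors, and Dkk2 acts on the LRP co-receptors. Dkk3 is a divergent member whose part in Wnt signalling depends on the cell. Dkk3 was at 17.2, 21.0 and 18.8 CPM with control siRNA and at 11.9, 12.1 and 11.96 CPM with Irf1 siRNA. The knockdown libraries were almost level with each other and below every control library. The mean fell from 18.99 ± 1.94 to 11.99 ± 0.131 CPM (SD, n = 3), 1.58-fold (log2 fold change −0.66, SE 0.09, adjusted p = 8.1e-05 in edgeR). For Dkk2, 0, 0 and 2 counts were found after control siRNA and 1, 1 and 0 after Irf1 siRNA. Both groups were under the limit of 3 counts per library (0.101 to 0.135 CPM), so no fold is given, and Dkk2 was not detectable as different at this depth.

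Notum encodes a secreted esterase that removes the lipid from Wnt proteins and is induced by Wnt signalling. It had 26, 15 and 16 counts with control siRNA and 11, 19 and 18 with Irf1 siRNA. The ranges overlap, with control replicate 1 the highest and Irf1 siRNA replicate 1 the lowest. The mean was 0.666 ± 0.226 and 0.652 ± 0.140 CPM (SD, n = 3), and the 95% interval ran from 0.604-fold to 1.61-fold (adjusted p = 0.97 in edgeR). The antisense genes Notumos and Myadml2os overlap Notum by 708 and 210 exonic bases. With the strand setting of the counting not known, the level of Notum is uncertain, like that of Sfrp2.

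The secreted genes were next set side by side per length, since longer transcripts give more counts. Levels per kilobase (kb) of annotated exon put Dkk3 (5.65 ± 0.579 CPM per kb) and Frzb (5.55 ± 0.948) together at the top in control cells, within their spread of each other. Wif1 (3.01 ± 0.910) and Sfrp1 (1.87 ± 0.156) followed, and their lowest and highest libraries did not overlap. Far below were Notum (0.277 ± 0.0939) and Sfrp2 (0.158 ± 0.0713), whose lowest and highest libraries came close without overlapping, and Dkk2 at 0.00608 ± 0.0105 CPM per kb. The antisense overlaps of Notum and Sfrp2 leave their order uncertain. With Irf1 siRNA, Frzb stood alone at 10.02 ± 1.97 CPM per kb, above Dkk3 at 3.57 ± 0.0391 and Wif1 at 2.99 ± 0.727, and Sfrp1 was at 0.728 ± 0.116. Dkk3 and Wif1 overlapped in the knockdown group, where the highest Wif1 library exceeded every Dkk3 library.

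The sum of the 7 secreted genes moved little while its makeup changed. Control libraries summed to 18.2, 16.1 and 15.3 CPM per kb and knockdown libraries to 20.4, 15.5 and 17.4, so the groups overlap. Frzb made up 33.4% ± 2.55 of the sum with control siRNA and 56.1% ± 3.30 with Irf1 siRNA. Dkk3 went from 34.5% ± 5.74 to 20.4% ± 3.01 and Sfrp1 from 11.4% ± 1.66 to 4.21% ± 1.20, while Wif1 was 18.0% ± 3.79 and 16.7% ± 1.71 (SD, n = 3). Shares of 1 sum are tied to each other, so a larger share of Frzb lowers the rest. The ratio of Frzb to Sfrp1 per kb was 3.53, 3.08 and 2.34 in control libraries and 20.1, 9.89 and 12.95 in knockdown libraries. Since Frzb rose and Sfrp1 fell without overlap, this ratio could not but separate the groups, and it is given for its size.

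**Figure D4:**
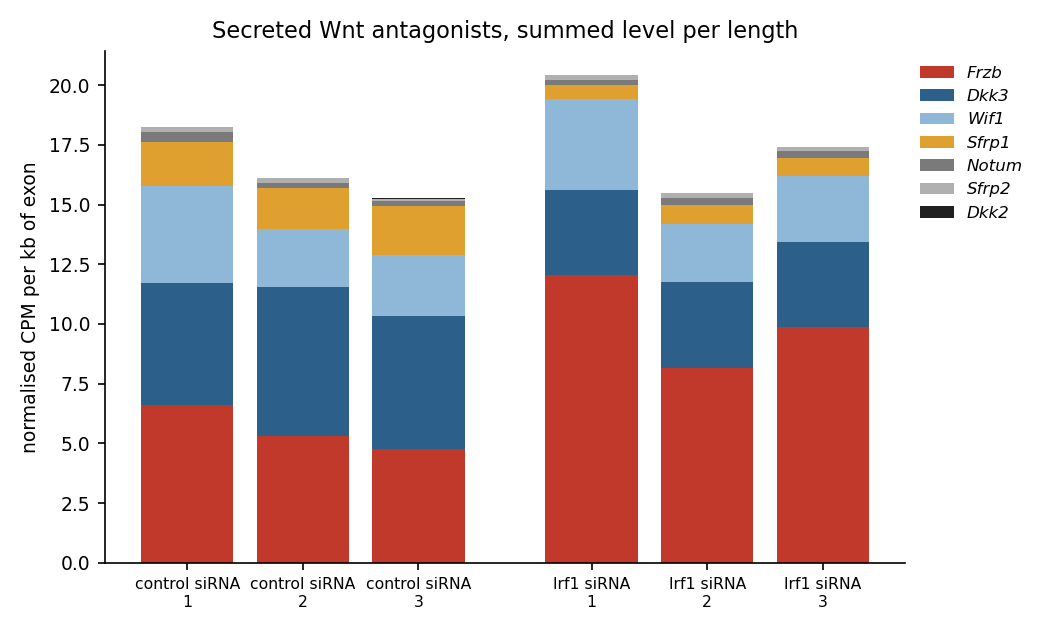
Normalised CPM per kb of exon (vertical axis, from 0) of the 7 secreted genes listed as antagonists, stacked for each of 3 control siRNA and 3 Irf1 siRNA libraries. The stack heights overlap between groups, 15.3 to 18.2 against 15.5 to 20.4, and Frzb, the bottom segment, fills 33.4% of the control stacks and 56.1% of the Irf1 siRNA stacks on average.

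Of the genes that act inside the cell, Nkd1 moved most. Nkd1 and Nkd2 encode naked cuticle proteins, which bind Dishevelled and damp the signal, and Nkd1 is a target of beta-catenin in many tissues. Nkd1 was at 5.24, 3.69 and 3.65 CPM with control siRNA and at 10.4, 8.43 and 10.2 CPM with Irf1 siRNA. All 3 knockdown libraries stood well above the highest control library. The mean rose from 4.19 ± 0.910 to 9.70 ± 1.11 CPM (SD, n = 3), 2.31-fold (log2 fold change 1.21, SE 0.15, adjusted p = 2.7e-05 in edgeR). Its relative Nkd2 had 16, 8 and 15 counts against 18, 15 and 13, with overlapping levels and a log2 fold change of 0.47 (95% interval −0.29 to 1.23, adjusted p = 0.38 in edgeR).

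Axin2 encodes a scaffold of the complex that destroys beta-catenin and is a widely used readout of beta-catenin activity. It was counted 51, 45 and 45 times with control siRNA and 47, 73 and 67 times with Irf1 siRNA. On the normalised scale these are 1.82, 1.60 and 1.52 CPM and 2.12, 2.65 and 2.86 CPM, which do not overlap. An antisense gene, Gm11670, shares 209 exonic bases with Axin2 and had 0 counts in both groups. The rise from 1.64 ± 0.156 to 2.54 ± 0.381 CPM (SD, n = 3) was 1.55-fold (log2 fold change 0.63, SE 0.19, adjusted p = 0.026 in edgeR). It is the least secure of the 5 calls: it was lost with DESeq2 (adjusted p = 0.060) and when replicate 2 or 3 of either group was left out (adjusted p = 0.072 to 0.12), with the log2 fold change between 0.54 and 0.64 in those fits.

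Promoter sequence was available from RefSeq (GRCm38.p6) for 7 of the 10 genes, as 250 bases before to 50 after the annotated start. The windows of the 3 genes that rose are printed because these genes moved in 1 direction. Capitals mark CTTTGA, 1 form of the core word of TCF/LEF factors, on either strand. Other forms of the core word were not searched.
Frzb, chr2:80447347-80447646 (-): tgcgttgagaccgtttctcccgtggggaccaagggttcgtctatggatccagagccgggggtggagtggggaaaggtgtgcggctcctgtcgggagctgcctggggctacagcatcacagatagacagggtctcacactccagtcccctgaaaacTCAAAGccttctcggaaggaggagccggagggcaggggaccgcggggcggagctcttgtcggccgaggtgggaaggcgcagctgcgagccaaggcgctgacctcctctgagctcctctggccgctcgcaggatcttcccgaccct
Nkd1, chr8:88527383-88527682 (+): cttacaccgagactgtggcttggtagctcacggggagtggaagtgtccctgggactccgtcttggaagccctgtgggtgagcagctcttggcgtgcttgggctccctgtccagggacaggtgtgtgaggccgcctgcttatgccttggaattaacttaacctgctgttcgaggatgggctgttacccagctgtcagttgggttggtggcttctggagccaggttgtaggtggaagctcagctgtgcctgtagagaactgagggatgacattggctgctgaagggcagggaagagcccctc
Axin2, chr11:108920099-108920398 (+): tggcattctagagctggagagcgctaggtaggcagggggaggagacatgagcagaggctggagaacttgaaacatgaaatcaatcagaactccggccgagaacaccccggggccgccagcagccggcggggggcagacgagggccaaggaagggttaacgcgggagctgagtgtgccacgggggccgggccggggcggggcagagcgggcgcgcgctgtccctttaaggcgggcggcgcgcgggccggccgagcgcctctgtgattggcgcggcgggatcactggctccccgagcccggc
The word was found once, in Frzb, starting 95 bases before the start site and read on the opposite strand. It was in 0 of the windows of Nkd1, Axin2, Nkd2, Wif1, Sfrp2 and Dkk2, and in 16.0% of 32851 RefSeq windows of this length. Interferon regulatory factors bind a pair of GAAA words with 2 bases between them. That pair, on either strand, was in none of the 7 windows and in 3.44% of all windows. A missing word says only that these letters are not in this window.

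The rest of the pathway was described from 9 lists of 115 genes, of which 90 were tested, with a few genes such as Bambi, Lef1 and Prickle1 in more than 1 list. Counted once each, 16 rose and 10 fell, 28.9% of those tested against 22.4% of all genes, with a median log2 fold change of 0.06 against 0.00 over all genes. The count of higher genes was 9 without Irf1 siRNA replicate 3, and the count of lower genes was 5 without control replicate 1 and 6 without control replicate 2. With the Col2a1 level in the model, 28 rose and 12 fell. By list, the main fit called 19% of tested transducers, 20% of the R-spondin axis, 22.2% of ligands and 25% of other antagonists. These are near the 22.4% of all genes. It called 27.3% of planar cell polarity genes, 33.3% of nuclear factors and 40% of receptors and co-receptors. It called 50% of 2 secretion genes and 50% of 12 other response genes.

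Among Wnt ligands, 2 of 9 tested rose and 0 fell (median log2 fold change 0.27). Wnt10b, a ligand of the beta-catenin branch, rose from 17.5 ± 1.25 to 22.7 ± 1.75 CPM (SD, n = 3; adjusted p = 0.0039 in edgeR). Wnt7a rose 2.47-fold from 32 counts in all to 68 (adjusted p = 0.0065). The other 10 ligands, among them Wnt1, Wnt2 and Wnt3a, were too low to test. Of the genes for ligand secretion, Porcn, which adds the lipid, fell by 0.41 (log2; adjusted p = 0.033). Leaving out replicate 1 or 2 of either group ended the call of Porcn (adjusted p = 0.051 to 0.16). Wls, which carries ligands to the surface, gave −0.08 (adjusted p = 0.35).

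The list of other secreted or surface antagonists, which includes the TGF-beta decoy receptor Bambi, gave 2 rises and 0 falls in 8 tested. Trabd2b, a membrane protease that cleaves Wnt ligands, rose 1.48-fold from 120.7 ± 5.29 to 178.9 ± 6.58 CPM (SD, n = 3; adjusted p = 4.0e-06 in edgeR). Bambi, a decoy receptor of TGF-beta that also bears on Wnt signalling, rose by 0.47 (log2; adjusted p = 4.5e-04). Sfrp4 gave −0.07 (adjusted p = 0.76) and Sfrp5 −0.16 (adjusted p = 0.75), so of the secreted Frizzled-related family Sfrp1 and Frzb alone passed the threshold. Dkk1 had 4 and 1 counts in all and was not tested.

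Of 15 tested receptors and co-receptors, 3 were higher and 3 lower. The higher count was 5 with upper-quartile scaling and 1 without replicate 3 of either group, where 3 (control left out) and 2 (Irf1 siRNA left out) were lower. Fzd9 rose by 0.60 and Ptk7 by 0.20, and Fzd1 fell by 0.40 and Fzd3 by 0.83 in log2 (adjusted p = 3.4e-04, 0.016, 4.1e-04 and 0.0018 in edgeR). Fzd8 (0.16) and Ror1 (−0.44), named after their values were seen, complete the 6. Fzd8 missed the threshold with DESeq2, with no low count filter, with the replicate block and whichever library was left out (adjusted p = 0.061 to 0.16). Ror1 did so with control replicate 1 or replicate 3 of either group left out (adjusted p = 0.076 to 0.10). Ptk7 missed the threshold when replicate 3 of either group was left out (adjusted p = 0.062 and 0.080). Of 5 tested genes of the R-spondin axis, which protects Frizzled from degradation, Rspo3 rose by 0.28 (adjusted p = 0.028). Rspo3 missed the threshold with DESeq2, with no low count filter, and when control replicate 1 or either of Irf1 siRNA replicates 2 and 3 was left out (adjusted p = 0.052 to 0.12).

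Inside the cell, 2 of 21 transducers rose and 2 fell. Dact1, a Dishevelled antagonist like Nkd1, rose 1.70-fold from 6.39 ± 1.37 to 10.9 ± 0.954 CPM (SD, n = 3; adjusted p = 8.7e-04 in edgeR). The kinase gene Csnk1d fell by 0.30 and Tnks2, whose product promotes the turnover of axins, by 0.28 in log2 (adjusted p = 0.0011 and 0.0027). Axin1, the constitutive relative of Axin2, gave 0.18 (adjusted p = 0.045), and missed the threshold with DESeq2, with no low count filter, and with any 1 of control replicates 1 and 2 and Irf1 siRNA replicates 1 and 3 left out (adjusted p = 0.062 to 0.20). Ctnnb1, beta-catenin itself, gave 0.10 (adjusted p = 0.18). Nuclear factors gave 2 rises, Bcl9 (0.35, adjusted p = 0.0019) and Tle1 (0.34, adjusted p = 0.011), and 2 falls, Tcf7l1 (−0.30, adjusted p = 0.025) and Lef1 (−0.27, adjusted p = 0.040). With upper-quartile scaling 4 nuclear factors rose and 1 fell. The fall of Lef1 did not hold with DESeq2, with upper-quartile scaling, or with any 1 of control replicates 1 and 2 and Irf1 siRNA replicate 3 left out (adjusted p = 0.061 to 0.18). That of Tcf7l1 did not hold with any 1 of control replicates 1 and 2 and Irf1 siRNA replicate 2 left out (adjusted p = 0.094 to 0.11), nor did the rise of Tle1 with Irf1 siRNA replicate 1 left out (adjusted p = 0.053).

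Of 12 other tested genes that respond to beta-catenin, 4 rose and 2 fell. Prickle1 rose by 0.50 (adjusted p = 0.0012) and Bambi is given above. Fgf18 rose by 1.07 in log2 from 31 counts in all to 56 (adjusted p = 0.030). Fgf18 missed the threshold with DESeq2, with no low count filter, and whichever of the 6 libraries was left out (adjusted p = 0.050 to 0.13). Ccnd1 (0.23, adjusted p = 0.040), which encodes cyclin D1, was named after its value was seen. Its groups overlapped, and it missed the threshold when replicate 2 of either group, control replicate 1 or Irf1 siRNA replicate 3 was left out (adjusted p = 0.093 to 0.20). The count of higher genes in this list was 2 without Irf1 siRNA replicate 2 and 2 without Irf1 siRNA replicate 3. Ccn4, also called Wisp1, went down from 136.0 ± 9.26 to 96.1 ± 4.83 CPM (SD, n = 3), a log2 fold change of −0.50 (adjusted p = 4.2e-05 in edgeR), and Lef1 was the other lower gene. Of 11 planar cell polarity genes, Prickle1 and Daam2 (0.23, adjusted p = 0.013) rose and Vangl1 (−0.25, adjusted p = 0.019) fell. Daam2 missed the threshold with Irf1 siRNA replicate 3 left out (adjusted p = 0.099). Vangl1 did so with any 1 of control replicates 1 and 2 and Irf1 siRNA replicates 1 and 3 left out (adjusted p = 0.055 to 0.067).

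**Figure D5:**
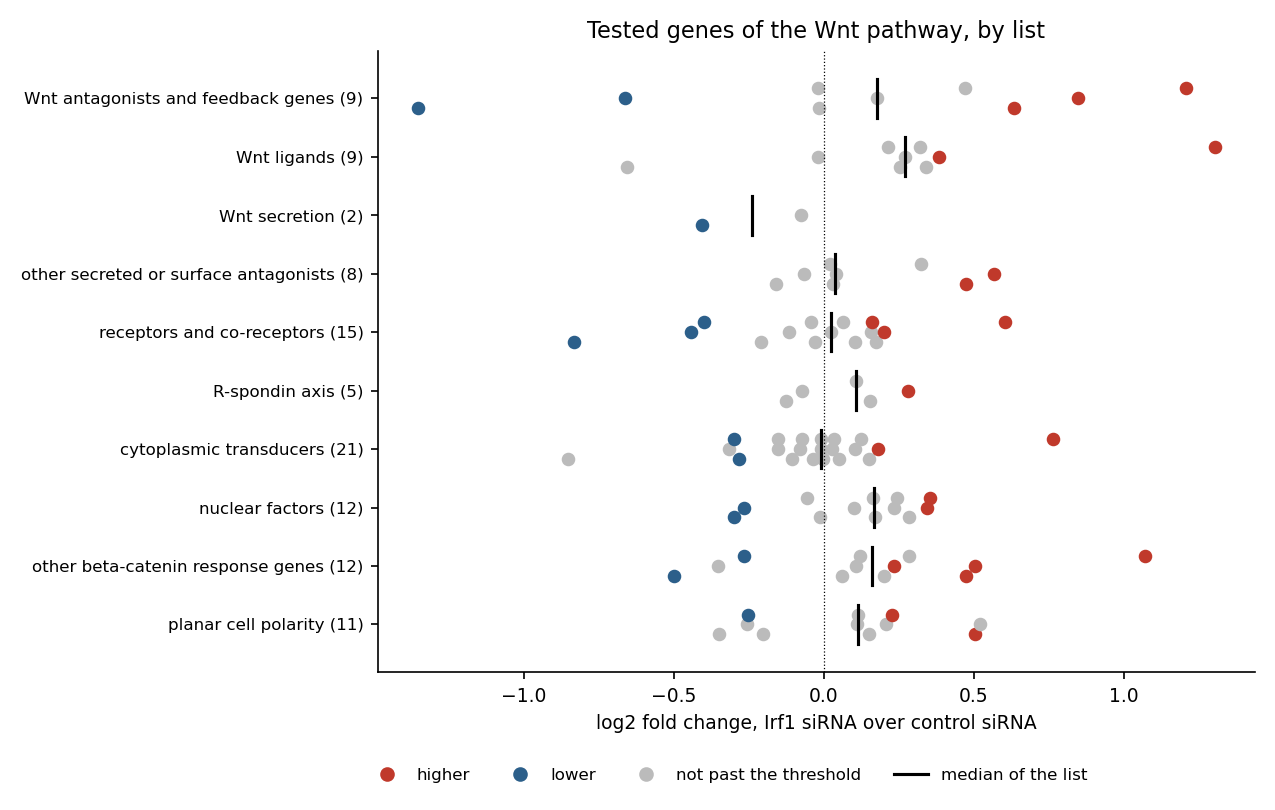
Log2 fold change of Irf1 siRNA over control siRNA (horizontal axis) for every tested gene of the 10 antagonist and feedback genes and of 9 pathway lists (rows, with the number tested); red and blue points passed the threshold as higher and lower, and the black line is the list's median. The antagonist and feedback genes spread from −1.35 to 1.21, and 5 of the other 9 lists hold both red and blue points.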

How the data were processed

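The submitters' processing notes name Trimmomatic 0.39, FastQC and STAR, and the build GRCm39 (mm39), with no order. The authors deposited 1 table of raw counts per library. Not given in the sources used here are the counting tool, its annotation release and its strand setting, so overlapping genes can share reads.

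The deposited counts went into edgeR 4.0.16 (R 4.3.3): filterByExpr, TMM scaling and the two-sided quasi-likelihood F test of siRNA group alone, adjusted by Benjamini-Hochberg over 14683 genes. Levels are TMM-normalised CPM. SE is the absolute log2 fold change over the square root of F. Gene lengths, 3′ UTRs and overlaps came from GENCODE M21 (GRCm38), matched by identifier. The test was tested on simulated data. No library was a copy of another: chi-square per degree of freedom within groups was 5.75 to 16.5. An exact permutation test of 3 against 3 cannot give p below 0.1 and was not used.

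The 10 genes and all lists were chosen with earlier results of these data known. Named were the 10 genes, Irf1, up to 4 changed genes per list by smallest p, and the 3 genes closest to the one with the smallest p. Alternatives were RLE and upper-quartile scaling, DESeq2 1.42.0, no filter, a replicate block, the longest transcript as length, each library left out and, added after seeing the data, the Col2a1 level as a covariate.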

Additional observations from a re-analysis of the deposited data

How the results depend on the processing

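Of the 9 tested genes, 8 kept their side of the threshold in every fit run, and the calls of Sfrp1, Frzb, Dkk3 and Nkd1 kept their direction; the adjusted p of Sfrp2 with DESeq2 was not given by that tool. Axin2 had a log2 fold change of 0.64 with DESeq2 (adjusted p = 0.060) and 0.54 to 0.74 with single libraries left out (adjusted p = 0.020 to 0.12). The count of higher genes among the 10 was 2 to 3, and that of lower genes 2, with single libraries left out. Over all genes, 1522 higher became 959 without Irf1 siRNA replicate 3, 980 without control replicate 2, and at most 1398, while lower genes numbered 1276 to 1716. With the Col2a1 level as a covariate, 2298 were higher. For the pathway lists, the 16 higher genes became 9 to 17 and the 10 lower genes 5 to 10 with single libraries left out, and 28 were higher with the covariate. With the replicate block, 1744 genes were higher and 1984 lower, and 3 and 2 of the 10 genes, so it changed none of their calls. Same-numbered libraries deviated together with correlations of 0.415, −0.161 and 0.0764, so the numbers were not taken to pair them, and control replicate 3 correlated best with Irf1 siRNA replicate 2. With the longest transcript as length, Axin2 was at 0.386 and 0.597 CPM per kb and Nkd1 at 2.38 with Irf1 siRNA (0.299, 0.462 and 2.13 with all exons), and Frzb then stood above Dkk3 in control cells. Depth limited Sfrp2, Notum, Nkd2 and Dkk2, with 57 counts or fewer in all per group.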
